A study of Mus musculus with 2 samples.

Results

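Erythroid cells, the developing and circulating carriers of haemoglobin, were taken from the droplet libraries of the mouse cerebral cortex by their globin share. A cell was counted as a member when genes with symbols beginning Hba- or Hbb- made up at least 30% of its unique molecular identifiers (UMIs), each of which stands for 1 captured RNA molecule. Cells also needed between 1500 and 60000 UMIs and under 10% mitochondrial UMIs. By this rule 134 of the 5966 cells of replicate 1 and 217 of the 10247 cells of replicate 2 were members, 351 of 16213 in all. Because the members were selected on their globin UMIs, globin levels are given as a description with no test.

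Both libraries were from the cerebral cortex of embryos at embryonic day (E) 16.5 with the WT genotype, taken as control animals of an *Eomes-Cre* line, and they form a single group of n = 2. No treatment, dose or second genotype was compared. The cells were released with papain and captured in droplets. Whether a library holds 1 embryo or several is not stated, so the spread between the libraries may be technical. No step that keeps or removes blood is given in the sources used here. With a single group, every comparison sets cell classes of a library against each other.

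Haemoglobin is a tetramer of a pair of α-type and a pair of β-type chains, each of which holds a haem group with iron. In the mouse embryo, the first red cells come from the yolk sac and make embryonic-type chains (*Hba-x*, *Hbb-bh1* and *Hbb-y*), while cells made later by the fetal liver carry the adult-type chains (*Hba-a1*, *Hba-a2*, *Hbb-bs* and *Hbb-bt*). As an erythroid cell matures it makes haem, builds the red cell membrane skeleton, condenses and expels its nucleus, and clears its mitochondria and ribosomes. Cells that have lost the nucleus but still hold RNA are called reticulocytes.

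The promoters of the globin genes and of *Alas2*, which encodes the erythroid form of the first enzyme of haem synthesis, are shown because adult-type globin and *Alas2* RNA lead in the members. Those of *Hbb-y* and *Hba-x* are given beside them for comparison, since their RNA was close to absent. Each run is the last 120 bases before the annotated start, from RefSeq on GRCm38.p6 (mm10), on the strand of the gene, and capitals mark CACCC and CCAAT or their reverse complements GGGTG and ATTGG. The table holds 7 of the genes looked for.
Hbb-bs, chr7:103827929-103828048, minus strand: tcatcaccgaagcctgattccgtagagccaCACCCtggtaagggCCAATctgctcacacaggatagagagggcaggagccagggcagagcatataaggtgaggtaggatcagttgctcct
Hbb-bt, chr7:103813924-103814043, minus strand: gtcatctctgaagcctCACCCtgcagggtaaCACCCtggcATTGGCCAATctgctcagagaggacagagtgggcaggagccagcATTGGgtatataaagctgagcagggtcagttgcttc
Hbb-y, chr7:103853208-103853327, minus strand: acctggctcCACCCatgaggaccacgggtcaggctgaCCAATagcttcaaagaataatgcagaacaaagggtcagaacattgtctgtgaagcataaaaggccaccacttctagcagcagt
Hba-a1, chr11:32283552-32283671, plus strand: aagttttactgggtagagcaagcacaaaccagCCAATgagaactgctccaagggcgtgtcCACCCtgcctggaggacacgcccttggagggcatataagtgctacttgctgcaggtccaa
Hba-a2, chr11:32296372-32296491, plus strand: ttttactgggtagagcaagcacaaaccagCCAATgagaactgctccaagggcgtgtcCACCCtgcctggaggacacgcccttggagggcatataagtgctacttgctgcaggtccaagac
Hba-x, chr11:32276480-32276599, plus strand: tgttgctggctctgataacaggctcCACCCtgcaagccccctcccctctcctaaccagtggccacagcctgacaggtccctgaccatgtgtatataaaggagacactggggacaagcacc
Alas2, chrX:150547297-150547416, plus strand: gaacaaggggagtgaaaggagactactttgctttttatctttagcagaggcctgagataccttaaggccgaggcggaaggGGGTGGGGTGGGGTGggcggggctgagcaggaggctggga

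CACCC, the core of the boxes that erythroid Krüppel-like factors are known to bind, was found on either strand in all 7 of these windows, and in 31.7% of the 32851 promoters of the table over the same length. CCAAT was found in 5 of the 7, and in 21.3% of all promoters. *Hba-x* and *Alas2* had no CCAAT in this window. Both motifs stood together in 6.23% of all promoters. The windows of *Hba-a1* and *Hba-a2* are the same sequence set 3 bases apart, with 117 of 117 aligned bases identical. In *Alas2*, 3 copies of CACCC lie end to end on the reverse strand. A match describes the letters and does not show a bound site.

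The adult-type globins made up nearly the whole of the globin RNA of the members. *Hbb-bs* (GRCm38.p6, chr7:103826523-103827928), the major adult β chain, gave 51.3% and 51.4% of globin UMIs in replicates 1 and 2. *Hbb-bt* (chr7:103812524-103813923), the other adult β chain, gave 14.8% and 14.5%. The shares of *Hba-a1* (chr11:32283672-32284486) were 19.6% and 19.8% and those of *Hba-a2* (chr11:32296492-32297310) 14.3% and 14.3%. The libraries thus differed by less than 0.5 percentage points for each of the 4 genes. Since the α genes are near-identical copies, the division of reads between them is uncertain, and their sum of 33.9% and 34.1% is the firmer value. The β-type sum was 66.1% and 65.9%. All 351 members held UMIs of all 4 genes.

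**Figure D1:**
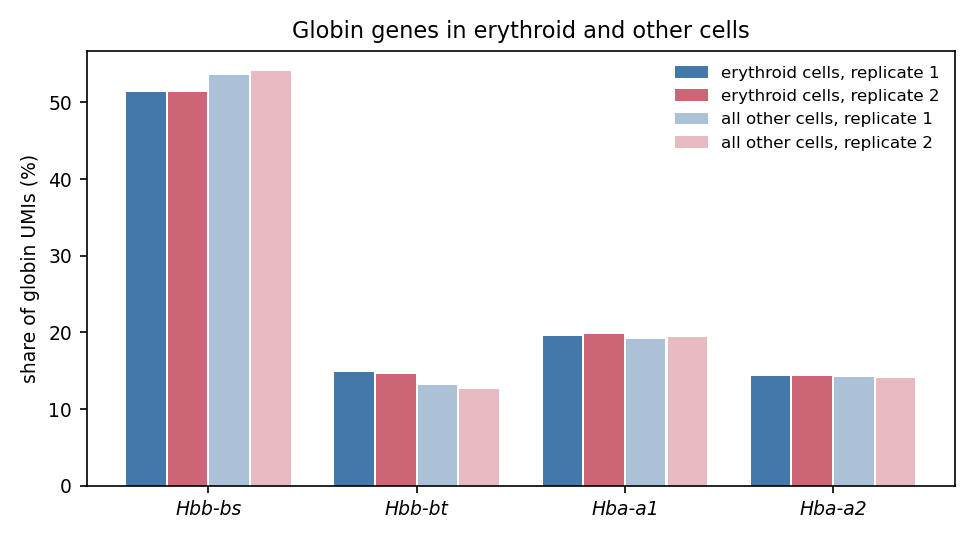
Share of globin UMIs (%, vertical axis) taken by each of the 4 adult-type globin genes, in the erythroid cells (dark bars) and in all other cells within the limits (light bars), 1 bar for each library. *Hbb-bs* stands just above 50% and *Hba-a1* just under 20% in every bar, while *Hbb-bt* lies above *Hba-a2* in members and below it in other cells.

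The division of globin UMIs was also taken cell by cell. The share of *Hbb-bs* ran from 44.9% at the 5th percentile to 62.6% at the 95th in replicate 1, and from 45.8% to 58.3% in replicate 2. For *Hba-a1* the corresponding limits were 16.7% to 23.1% and 16.7% to 22.7%. *Hbb-bt* ran from 5.41% to 18.8% in replicate 1 and from 7.37% to 18.3% in replicate 2.

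Embryonic-type globin RNA was close to absent. *Hbb-bh1*, an embryonic β-type chain, had 91 UMIs in 2 members of replicate 1 and 13 UMIs in 1 member of replicate 2. Of the 91, 90 came from a single cell with 9153 UMIs, in which embryonic-type chains made up 1.15% of globin UMIs. *Hba-x*, the embryonic α-type chain, had 0 UMIs in replicate 1 and 1 in replicate 2, and *Hbb-y* likewise had 0 and 1. *Hbb-bh2* had none in either library. A count of 0 in the 350951 globin UMIs of replicate 1 allows a share of up to 0.000855%, for counting error only. With 1 member at or above 1% embryonic-type globin, too few cells were available for a comparison of members with and without it.

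Globin RNA was also met outside the members, at low levels. In replicate 1, 97.9% of the other cells had at least 1 globin UMI, and in replicate 2 99.7%, with medians of 4 and 6 globin UMIs per cell. Globin made up 0.110% and 0.200% of their UMIs. Of the adult-type genes, *Hbb-bs* gave 53.6% and 54.0% there, *Hba-a1* 19.1% and 19.4%, *Hba-a2* 14.2% and 14.0% and *Hbb-bt* 13.1% and 12.6%, as drawn in the plot of globin genes. *Hbb-bs* was thus higher and *Hbb-bt* lower there than in members, by more than the libraries differed. The members held 89.1% and 84.3% of all globin UMIs of the cells within the limits. A trace of globin in a cell was therefore not used to call it erythroid.

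The members made up 2.25% of the cells of replicate 1 (exact 95% binomial interval 1.89 to 2.65%) and 2.12% of those of replicate 2 (1.85 to 2.42%), a mean of 2.18% ± 0.0908 (SD, n = 2). The intervals overlap and cover counting error only. The share depends on the limits: it was 0.821% and 0.790% in replicates 1 and 2 with at least 80% globin, 1.21% and 1.39% with at least 3000 UMIs and 4.91% and 3.86% with under 5% mitochondrial UMIs. The distribution of globin shares had a low stretch between 10% and 55%, where bins of 5 percentage points held at most 4 cells in replicate 1 and at most 11 in replicate 2, and most members lay between 60% and 90%. The median globin share was 76.6 and 74.6%, and the highest 88.8 and 89.7%. Just inside the limit, the 3 lowest members had 33.0%, 34.7% and 37.0% globin in replicate 1 and 31.1%, 32.7% and 33.9% in replicate 2. Just outside it, shares were 26.1%, 28.0% and 29.4%, and 29.1%, 29.2% and 29.3%. The cells on both sides of the limit held 1237 to 3140 genes, far above the median member. Per 1000000 non-globin UMIs, the 6 and 15 members at 30 to 50% globin had 6616 and 5193 UMIs of 8 neuron markers. They had 4811 and 3225 of 9 erythroid markers, and 16621 and 16433 of *Malat1*. These members gave 18290 and 62011 of the 107232 and 220617 non-globin UMIs of all members. Their name rests on the globin rule, and what they are was not tested.

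**Figure D2:**
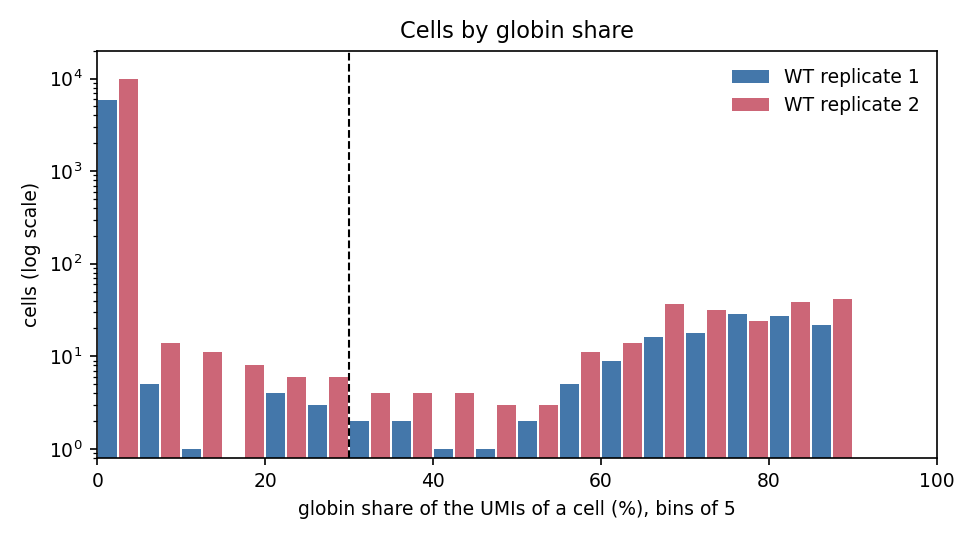
Number of cells (vertical log axis) by the globin share of their UMIs (horizontal axis, %, bins of 5), for both libraries, with the 30% limit as a broken line. Almost all cells lie in the lowest bin, few lie between 10% and 55%, and the members form a second group that ends below 90%.

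Members were small in RNA content outside globin. They had medians of 2728 and 3108 UMIs and 359 and 393 genes in replicates 1 and 2, against 5796 and 4979.5 UMIs and 2534 and 2283 genes in the other cells. Only 636 and 689 UMIs of a median member were not globin. Members with over 1000 genes numbered 5 and 16. No cell barcode among the members was shared by the libraries, and 21 were shared among all cells within the limits.

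All further values leave the globin genes out and are counts scaled to 1000000 non-globin UMIs (CPM). The members' non-globin UMIs were summed in each library, giving 107232 and 220617, and compared with the sums of the remaining cells, mostly neurons and progenitors. With edgeR (quasi-likelihood fit, Benjamini-Hochberg adjusted p-values), 568 of 18323 genes were higher in erythroid cells (3.1%) and 747 were lower (4.08%) at the 0.05 level. The median log2 fold change over all tested genes was -0.82. The split of calls moved with the scaling: it was 750 higher and 400 lower with DESeq2's size factors, 432 higher and 1611 lower with plain library size, and 883 higher and 187 lower in DESeq2 itself. The median of all genes was -0.58, -1.13 and 0.13 in these fits, so that a small change is read against that shift. The printed CPM use the plain totals of non-globin UMIs, whereas the fold changes also use the TMM factors, which set them 0.33 and 0.30 higher on the log2 scale than the ratio of the printed CPM in replicates 1 and 2.

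Haem synthesis genes were raised in the members, led by *Alas2*. *Alas2* (chrX:150547417-150570622) had 5642 and 4120.3 CPM in the erythroid sums and 11.8 and 12.8 CPM in the remaining cells in replicates 1 and 2, a log2 fold change of 8.92 ± 0.23 (SE, adjusted p = 1.73e-312). *Fech*, the enzyme that puts iron into the ring and ends the pathway, had 1399 and 666 CPM in the erythroid sums and 13.7 and 13.2 CPM in the remaining cells, a log2 fold change of 6.49 ± 0.22. *Urod*, of the fifth step, had 317 and 258 CPM in the erythroid sums and 17.7 and 19.4 CPM in the remaining cells (log2 fold change 4.24 ± 0.28). In all 6 of the 11 tested genes of the pathway rose and 0 fell, with a median log2 fold change of 2.22. *Alad* (2.22 ± 0.31) and *Cpox* (2.23 ± 0.68) were also among those that rose. *Uros* and *Ppox* rested on 3 and 3 and on 1 and 3 erythroid UMIs, and did not pass the test. The same number of the list rose when the members with over 1000 genes were left out (6).

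Detection followed the levels. With every cell thinned to 400 non-globin UMIs, *Alas2* was seen in 81.3% and 73.3% of the members of replicates 1 and 2 and in 0.647% and 0.615% of the remaining cells. Without thinning the shares were 87.3% and 87.6% and 7.03% and 6.18%. The median depths behind the unthinned shares were 636 and 689 non-globin UMIs in members and 5790 and 4967 in all other cells. *Fech* was seen in 44.0% and 28.6% of thinned members and in 0.455% and 0.513% of thinned remaining cells. The plot of detection gives the same shares for 14 genes.

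**Figure D3:**
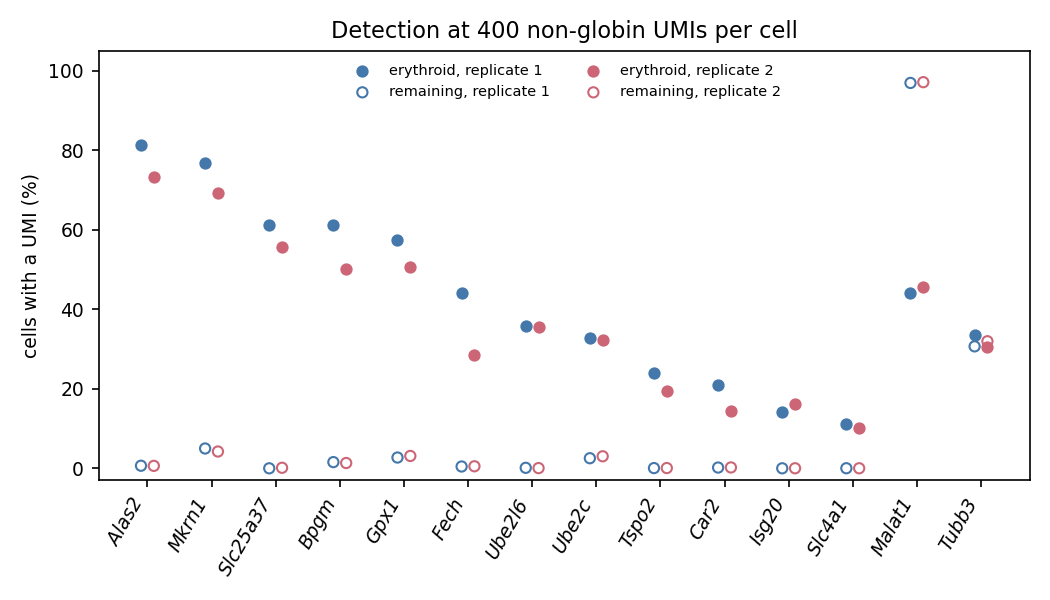
Share of cells with at least 1 UMI of a gene (vertical axis, %) after thinning each cell to 400 non-globin UMIs, for erythroid cells (filled) and remaining cells (open) of both libraries. *Alas2* is seen in over 70% of erythroid cells and under 1% of remaining cells, while *Malat1* is seen in under 50% of erythroid and over 95% of remaining cells and *Tubb3* in about the same share of both.

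Genes of iron import, iron storage and haem breakdown were also among those that rose. *Slc25a37* (mitoferrin 1), which carries iron into mitochondria, had 2779 and 1818 CPM in the erythroid sums and 2.69 and 2.69 CPM in the remaining cells, a log2 fold change of 10.00 ± 0.26 (adjusted p = 3.57e-310). The ferritin chains, which store iron, were both higher: *Ftl1* had 15807 and 10099 CPM in the erythroid sums and 1765 and 1781 CPM in the remaining cells, and *Fth1* had 8775 and 6894 CPM in the erythroid sums and 714 and 774 CPM in the remaining cells. *Blvrb*, biliverdin reductase B, had 2303 and 1786 CPM in the erythroid sums and 11.2 and 13.5 CPM in the remaining cells (log2 fold change 7.68 ± 0.23). Of the 17 tested genes of iron and haem handling, 8 rose and 0 fell. They included *Ncoa4* (4.83 ± 0.23), the receptor that sends ferritin to be broken down, *Slc48a1* (4.36 ± 0.29), a haem transporter, and *Tfrc* (1.53 ± 0.49), the transferrin receptor. *Tfrc* rested on 5 and 10 erythroid UMIs. The median of the list was 1.53, and 3.16 with the 2 members at 0 UMIs in the erythroid sums set to a floor of 3 counts or left out when both classes were at or under it.

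Genes of the erythroid signature were higher in every tested case. All 14 of 14 tested genes rose, of 19 listed, with a median log2 fold change of 6.81, and the same held at a globin share of 80% or more. The list was drawn up with earlier results of these data known, and it holds *Rsad2*, *Isg20* and *Ube2l6*, named again below. Genes near absent from the remaining cells, such as *Rsad2*, passed the filter of 10 counts in 2 sums through the erythroid sums. *Hemgn*, *Car1*, *Ctse* and *Cldn13*, sparse in the members, were not tested. The full count was thus partly fixed beforehand. *Ahsp*, the α-globin chaperone, was not analysed here. *Bpgm*, which makes the 2,3-bisphosphoglycerate that lowers the oxygen affinity of haemoglobin, had 4700.1 and 2575 CPM in the erythroid sums and 34.6 and 35.5 CPM in the remaining cells. *Gpx1* (glutathione peroxidase 1) had 6612 and 5684 CPM in the erythroid sums and 70.5 and 81.3 CPM in the remaining cells, and *Prdx2* (peroxiredoxin 2), abundant in red cells, had 5679 and 4419 CPM in the erythroid sums and 1145 and 1135 CPM in the remaining cells. Their log2 fold changes were 6.95 ± 0.22, 6.65 ± 0.20 and 2.45 ± 0.17. The ubiquitin ligase gene *Mkrn1* had 6034 and 3182 CPM in the erythroid sums and 117 and 107 CPM in the remaining cells (log2 fold change 5.62 ± 0.20). *Car2*, a carbonic anhydrase that hydrates carbon dioxide, had 1324 and 779.6 CPM in the erythroid sums and 5.02 and 5.69 CPM in the remaining cells (log2 fold change 7.85 ± 0.24).

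The components of the red cell membrane made up a further group. *Slc4a1* (band 3), the anion exchanger that anchors the membrane skeleton, had 476 and 304 CPM in the erythroid sums and 0.0532 and 0.125 CPM in the remaining cells, a log2 fold change of 12.09 ± 0.55 (adjusted p = 8.81e-105). *Epb41* (protein 4.1), which joins spectrin to actin, had 1362 and 952 CPM in the erythroid sums and 113 and 104 CPM in the remaining cells (log2 fold change 3.70 ± 0.21), and *Mpp1* (p55), its partner, had 476 and 299 CPM in the erythroid sums and 5.72 and 5.10 CPM in the remaining cells. Of 19 tested genes of 24 listed, 10 rose and 0 fell, with a median of 2.39. *Sptb*, a β-spectrin gene, rose by 4.92 ± 0.67. *Slc4a1* was seen in 11.2% and 10.1% of thinned members and in 0.0175% and 0.0103% of thinned remaining cells.

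**Figure D4:**
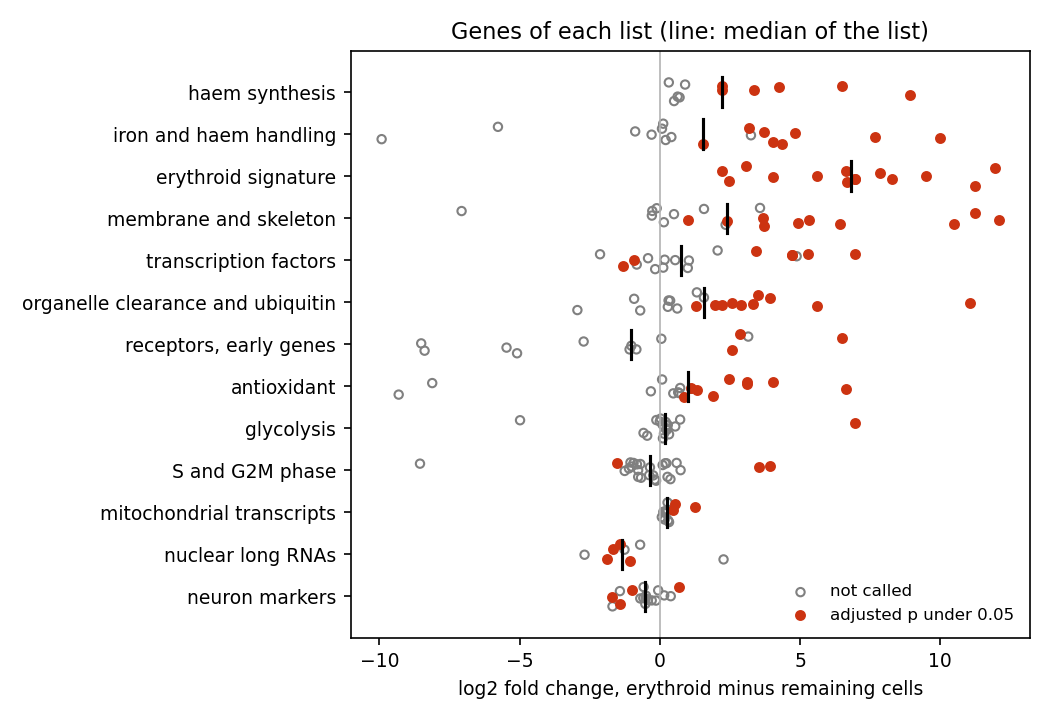
Log2 fold change of each tested gene between erythroid and remaining cells (horizontal axis), grouped by list, with called genes filled and the median of each list as a line. All genes of the erythroid signature are called and lie above 2, while the genes of glycolysis and of neurons cluster near 0 and the nuclear long RNAs lie mostly below it.

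Genes that mark the clearance of organelles and proteins were raised as well. *Ubb*, a polyubiquitin gene, had 13149 and 9578 CPM in the erythroid sums and 2388 and 2286 CPM in the remaining cells (log2 fold change 2.58 ± 0.15). *Bnip3l* (NIX), the receptor by which maturing red cells hand mitochondria to autophagy, had 2126 and 1437 CPM in the erythroid sums and 143 and 140.3 CPM in the remaining cells (log2 fold change 3.94 ± 0.20). *Gabarapl2*, of the family that coats autophagosomes, had 2052 and 1233 CPM in the erythroid sums and 198 and 201 CPM in the remaining cells. In the list of clearance and ubiquitin genes, 10 of 19 tested rose and 0 fell, with a median of 1.57. *Ube2o*, the enzyme that is known to tag ribosomal proteins in reticulocytes, rose by 3.49 ± 0.25. *Trim10*, of 22 and 39 UMIs, had a log2 fold change of 11.06 ± 0.82.

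Part of the genes of defence against peroxide rose too. Of 18 tested antioxidant genes 9 rose and 0 fell, with a median of 0.99. Besides *Gpx1* and *Prdx2*, *Glrx5*, which builds iron-sulphur clusters, had 914 and 489.5 CPM in the erythroid sums and 96.4 and 95.4 CPM in the remaining cells (log2 fold change 3.11 ± 0.21), and *Gpx4* had 522 and 381 CPM in the erythroid sums and 207 and 229 CPM in the remaining cells (log2 fold change 1.32 ± 0.22). *Cat* (catalase) rose by 4.03 ± 0.27.

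Glycolysis genes were mostly not called, although red cells live on glycolysis. *Bpgm* was the one gene of 18 tested that rose, 0 fell, and the median was 0.18, beside -0.82 over all tested genes. *Gapdh* had 494 and 499 CPM in the erythroid sums and 512 and 527 CPM in the remaining cells (log2 fold change 0.24 ± 0.20 with the TMM factors, adjusted p = 0.690). *Pkm* and *Ldhb*, of the last steps, had 159 and 240.2 and 139.9 and 227 CPM in the erythroid sums, with log2 fold changes of -0.00 ± 0.25 and 0.15 ± 0.25. These genes missed the test, which does not show that they were equal.

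Transcription factor RNA was sparse. Of 18 tested erythroid factors of 20 listed, 5 rose and 2 fell. *Lmo2*, a bridge of the GATA1 complex, had 11 and 21 UMIs in the erythroid sums and a log2 fold change of 4.72 ± 0.42. *E2f2*, a cycle regulator of late erythroid divisions, had 16 and 11 UMIs and a log2 fold change of 4.70 ± 0.54. The master regulator genes *Klf1*, *Tal1* and *Gata1* had 3 and 3, 3 and 1 and 2 and 0 UMIs in replicates 1 and 2, and *Gata1* did not pass the filter. *Klf1* and *Tal1* were among the 5 that rose, as was *Zfpm1*, which encodes a partner of GATA1, with 3 and 2 UMIs. With only the sums of the 2 classes in the fit, *Lmo2* and *E2f2* were the 2 that rose. *Bcl11a* and *Sox6*, which silence embryonic globin genes in the red cell lineage and are also used by neurons, were lower than in the remaining cells, with 159 and 236 CPM in the erythroid sums and 513 and 482 CPM in the remaining cells for *Bcl11a* and 139.9 and 63.5 CPM in the erythroid sums and 308 and 265 CPM in the remaining cells for *Sox6*. Their log2 fold changes were -0.92 ± 0.24 and -1.31 ± 0.30, and -1.70 and -2.01 without the members with over 1000 genes, which held most of the UMIs of *Bcl11a* (7 and 19 UMIs were left of 17 and 52). *Bcl11a* did not pass the test with DESeq2's size factors (adjusted p = 0.0903) or with only the sums of the 2 classes (adjusted p = 0.0846), and neither passed in DESeq2. Against macrophage and endothelial cells *Bcl11a* had log2 fold changes of 1.09 ± 0.29 and 0.63 ± 0.26, of which the first passed the test. At a globin share of 80% or more, *Lmo2* and *E2f2* were again the 2 factors that rose.

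Receptors and genes of early progenitors were near the floor. *Epor*, the erythropoietin receptor, and *Gata2* had 0 UMIs in both erythroid sums. *Kit*, the receptor of stem cell factor that is lost as erythroid cells mature, had 0 and 2 UMIs. A count of 0 over both libraries allows up to 9.15 CPM. Of 13 tested genes 3 rose and 0 fell. Those that rose were *Bcl2l1* (BCL-XL, 2.59 ± 0.25), which protects late erythroblasts from death, *Pim1* (2.85 ± 0.46) and *Cd36* (6.51 ± 1.59, from 2 and 2 UMIs). *Cd36* did not pass at 80% globin (adjusted p = 0.287) or without the members with over 1000 genes (adjusted p = 0.0503).

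A pair of mitosis genes stood apart from the rest of the cycle genes. *Ube2c*, which feeds ubiquitin to the anaphase-promoting complex, had 1613 and 925 CPM in the erythroid sums and 96.0 and 107 CPM in the remaining cells, a log2 fold change of 3.92 ± 0.21 (adjusted p = 6.75e-76). *Nusap1*, a spindle protein, had 615 and 426 CPM in the erythroid sums and 49.6 and 56.8 CPM in the remaining cells (log2 fold change 3.55 ± 0.22). Of 26 tested S and G2M phase genes these were the 2 that rose, 1 fell (*Cenpf*, -1.54 ± 0.49) and the median was -0.37. *Mki67* had 4 and 2 UMIs in the erythroid sums and *Top2a* 6 and 13. *Hmgb2* had 522 and 594 CPM in the erythroid sums and 741 and 792 CPM in the remaining cells, and *Pcna* 65.3 and 99.7 CPM in the erythroid sums and 95.1 and 92.4 CPM in the remaining cells, with log2 fold changes of -0.13 ± 0.20 and 0.23 ± 0.33. *Ube2c* was seen in 32.8% and 32.3% of thinned members against 2.53% and 3.02% of thinned remaining cells.

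The 15 genes with the largest upward change by the naming rule included *Rsad2*, *Isg20* and *Ube2l6*, all of which are also known as interferon-stimulated genes. *Rsad2* (viperin) had 419.7 and 231 CPM in the erythroid sums and 0.0532 and 0.107 CPM in the remaining cells, *Isg20*, an exonuclease, had 419.7 and 489.5 CPM in the erythroid sums and 0.0532 and 0.356 CPM in the remaining cells, and *Ube2l6*, an enzyme of ISG15 transfer, had 1343 and 1006 CPM in the erythroid sums and 1.91 and 1.98 CPM in the remaining cells. Their log2 fold changes were 11.96 ± 0.64, 11.25 ± 0.40 and 9.51 ± 0.25. *Tent5c*, a poly(A) polymerase, had 1660.0 and 1038 CPM in the erythroid sums and 0.346 and 0.980 CPM in the remaining cells (log2 fold change 11.14 ± 0.28). *Tspo2*, a translocator protein known from red cells, had 681 and 431 CPM in the erythroid sums and 2.47 and 1.87 CPM in the remaining cells (log2 fold change 8.27 ± 0.29). *AI662270*, *Gm16867* and *Ncf4*, the last a subunit of the phagocyte oxidase, had log2 fold changes of 12.23 ± 0.74, 8.22 ± 0.67 and 10.37 ± 0.80. *Hbq1a*, a theta-type globin gene that the rule does not use, had 17 and 16 UMIs in members and a log2 fold change of 11.28.

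Nuclear long RNAs were low in the members against the remaining cells. *Malat1*, a long RNA held in the nucleus, had 4933 and 7969 CPM in the erythroid sums and 15724 and 17316 CPM in the remaining cells (log2 fold change -1.08 ± 0.14, adjusted p = 6.43e-13). No *Malat1* UMI was found in 58 and 78 members, 43.3% and 35.9%, against 0.463% and 0.608% of the other cells. The members with over 1000 genes, 5 and 16 in number, held 374 and 1532 of the 529 and 1758 *Malat1* UMIs. After thinning to 400 non-globin UMIs, *Malat1* was seen in 44.0% and 45.6% of members and 96.9% and 97.1% of remaining cells. Of the 8 tested nuclear long RNAs 0 rose and 4 fell, among them *Meg3* (-1.69 ± 0.28) and *Miat* (-1.41 ± 0.47), the latter with adjusted p-values of 0.163 with DESeq2's size factors, 0.398 in DESeq2, 0.0561 with no library block and 0.168 with only the sums of the 2 classes. The whole list summed to 5176 and 8173 CPM in members and 16562.5 and 18045 in remaining cells. In the macrophage and endothelial cells compared below it summed to 8526 and 10951 and to 8617 and 12171 CPM. The list median was -1.34 against remaining cells, but -0.35 and -0.48 against macrophage and endothelial cells. Part of the difference from the remaining cells was thus shared by those classes.

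Ribosomal protein genes took a larger part of the non-globin UMIs of members than of remaining cells, 20.8% and 20.4% against 11.3% and 12.6%. Of 93 tested, 79 rose and 1 fell, with a median log2 fold change of 0.98, and 0.67 with plain library size. Transcripts of the mitochondrial genome had a similar part in both classes, 5.46% and 5.45% in members against 5.23% and 4.76%. The mitochondrial limit of 10% was set on all UMIs, so globin diluted it mainly in members. Members reached up to 20.2% and 28.9% of their non-globin UMIs, and other cells up to 12.6% and 10.2%. Medians per cell were 4.31% and 4.33% in members and 5.54% and 4.88% in other cells. These values were shaped by that limit and are given as a description. Of 13 tested, 3 rose and 0 fell, led by *mt-Co1*, a subunit of cytochrome c oxidase, with 7945 and 5521 CPM in the erythroid sums and 3717 and 3324 CPM in the remaining cells (log2 fold change 1.24 ± 0.15). Since the limit acted on these same UMIs, the calls are no support for a difference. The number called higher was 10 in DESeq2 and 6 with DESeq2's size factors. It was 1 with plain library size, at 80% globin, with only the sums of the 2 classes and with doublets removed. The median of the 13 turned from 0.27 to -0.04 with plain library size, so no direction is given for them as a group.

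Genes of cortical cells were found in the members too. The neuron marker list summed to 5073 and 6165 CPM in the erythroid sums, against 9926 and 9902 in the remaining cells, where 1 of 18 markers rose and 3 fell. *Stmn2*, a microtubule regulator of neurons, had 1529 and 1396 CPM in the erythroid sums and 1022 and 1234 CPM in the remaining cells (log2 fold change 0.68 ± 0.18), and *Tubb3*, the neuronal tubulin, had 1147 and 1006 CPM in the erythroid sums and 1011 and 1019.5 CPM in the remaining cells (log2 fold change 0.39 ± 0.18). *Stmn2* did not pass with plain library size (log2 fold change 0.37, adjusted p = 0.190) or at 80% globin (0.21, 0.751), nor with only the sums of the 2 classes in the fit (adjusted p = 0.0659). *Nrxn3* and *Map1b* had 345 and 1283 and 466 and 671 CPM in the erythroid sums. Much of *Nrxn3* came from the members with over 1000 genes, without which 25 and 19 of its 37 and 283 UMIs were left in replicates 1 and 2, and its log2 fold change went from -1.70 ± 0.18 to -3.71. Without those members 7 of the 18 neuron markers fell. Of 10 progenitor markers 1 rose and 1 fell (*Slc1a3*), with a median log2 fold change of -0.36. The one that rose, *Fabp7*, a fatty acid binding protein of radial glia, had 1576 and 2099 CPM in the erythroid sums and 1292 and 1384 CPM in the remaining cells (log2 fold change 0.72 ± 0.18, and 0.41 with an adjusted p of 0.127 with plain library size). In DESeq2 its adjusted p was 0.101, and that of *Nrxn3* 0.0565. It was seen in 44.0% and 64.1% of thinned members and 18.8% and 22.5% of thinned remaining cells. *Stmn2* and *Fabp7* RNA in members is given as measured, and the part of free RNA in the droplets was not tested.

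The 10 genes with the largest downward change by the naming rule had between 0 and 14 UMIs in each erythroid sum. *Adarb2*, known from interneurons, had 46.6 and 63.5 CPM in the erythroid sums and 438 and 408 CPM in the remaining cells (log2 fold change -2.73 ± 0.33). *Kcnq3*, a potassium channel gene, had 37.3 and 58.9 CPM in the erythroid sums and 384 and 344 CPM in the remaining cells (log2 fold change -2.52 ± 0.33). *Tmem108*, *Gramd1b* and *Trpm3* had 3 and 12, 3 and 5 and 3 and 3 erythroid UMIs, and log2 fold changes of -2.47 ± 0.35, -2.70 ± 0.43 and -2.37 ± 0.48. The others were *Thsd7a*, *Sox1ot*, *Gm38505*, *Efna5* and *A230057D06Rik*, with log2 fold changes between -3.24 and -2.45.

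Markers of macrophages, the cells that take up red cells and nuclei, differed between the libraries. The list summed to 46.6 and 417 CPM in the erythroid sums and to 25.2 and 34.9 in the remaining cells. *C1qa*, *C1qb* and *Cx3cr1* had 0 and 19, 0 and 12 and 0 and 14 UMIs in members of replicates 1 and 2, so each was at 0 in replicate 1. In replicate 2 the *C1qa* UMIs came from 6 of the 217 members, and 2 members reached the macrophage limit of 3 UMIs. Although 8 of 12 macrophage markers were called higher than in the remaining cells, 5 were so without the members with over 1000 genes and 1 at a globin share of at least 80%. The remaining cells leave out every cell with at least 3 UMIs over 5 of these markers, whereas members at that limit were kept. The reference was thus lowered beforehand, and these calls are no support for macrophage RNA in members. Of the 8 calls, those of *C1qa*, *C1qb*, *Cx3cr1*, *Csf1r*, *Tyrobp* and *Trem2*, 6 in all, rest on replicate 2, since a 0 in replicate 1 allows up to 28.0 CPM, above the summed level of the list in the remaining cells of that library. Endothelial markers summed to 83.9 and 227 CPM against 32.4 and 51.2, with *Cldn5*, a tight junction gene, at 4 and 29 UMIs. Mural and fibroblast markers summed to 56.0 and 131 CPM, platelet and megakaryocyte markers to 28.0 and 63.5 CPM, and neutrophil and lymphoid markers to 0 and 22.7 CPM. Of these 4 lists, 2 of 11, 0 of 10, 1 of 4 and 1 of 2 tested genes were called higher, in the same order. For the endothelial list the remaining cells were likewise without the 75 and 180 cells taken by 5 endothelial genes. Members within that limit, 2 in replicate 2, were kept, so this reference was lowered beforehand too. The platelet call was *Pf4*, which the macrophage list also holds and which made up all 3 platelet UMIs of replicate 1. The lymphoid call was *Ptprc*, from 0 and 5 UMIs, all in 1 cell of replicate 2, and it fell to 0 UMIs with doublets removed, at 50% globin and without the members with over 1000 genes. Their part in the results was not tested.

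Within the members, erythroid transcripts climbed with the globin share. The cells with at most 1000 genes were taken in bands of 50 to 70%, 70 to 80% and 80 to 90% globin, which are ranges and not cell types, and no test was made. *Alas2* had 3158 and 2877 CPM in replicates 1 and 2 in the lowest of these bands, 5987 and 4474 in the middle and 9095 and 8360.4 in the highest. *Mkrn1* had 3948 and 2090.2, 5239 and 4286 and 10264 and 6215 CPM, and *Gpx1* 4244 and 1352, 4668 and 4983 and 11486 and 14273 CPM. In both libraries the highest band was the highest for each of these genes.

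*Blvrb* went from 987 and 713 to 4106 and 4276 CPM between the outer bands, *Fth1* from 5724 and 4844 to 14032 and 12986, and *Ube2c* from 592 and 664 to 2703 and 1637. Ribosomal protein genes, by contrast, had 238995 and 255889 CPM in the lowest band and 220597 and 237682 in the highest. Summed over 9 erythroid markers, the level was 16877 and 11631 CPM in the lowest band and 42539 and 34268 in the highest, while the sum of 8 neuron markers was 4688 and 4525 and 2495 and 3052. Mitochondrial transcripts were at 50582 and 64944 and 50179 and 46491 CPM. *Malat1* had 2764 and 1672 CPM in the lowest and 1169 and 1351 in the highest band.

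**Figure D5:**
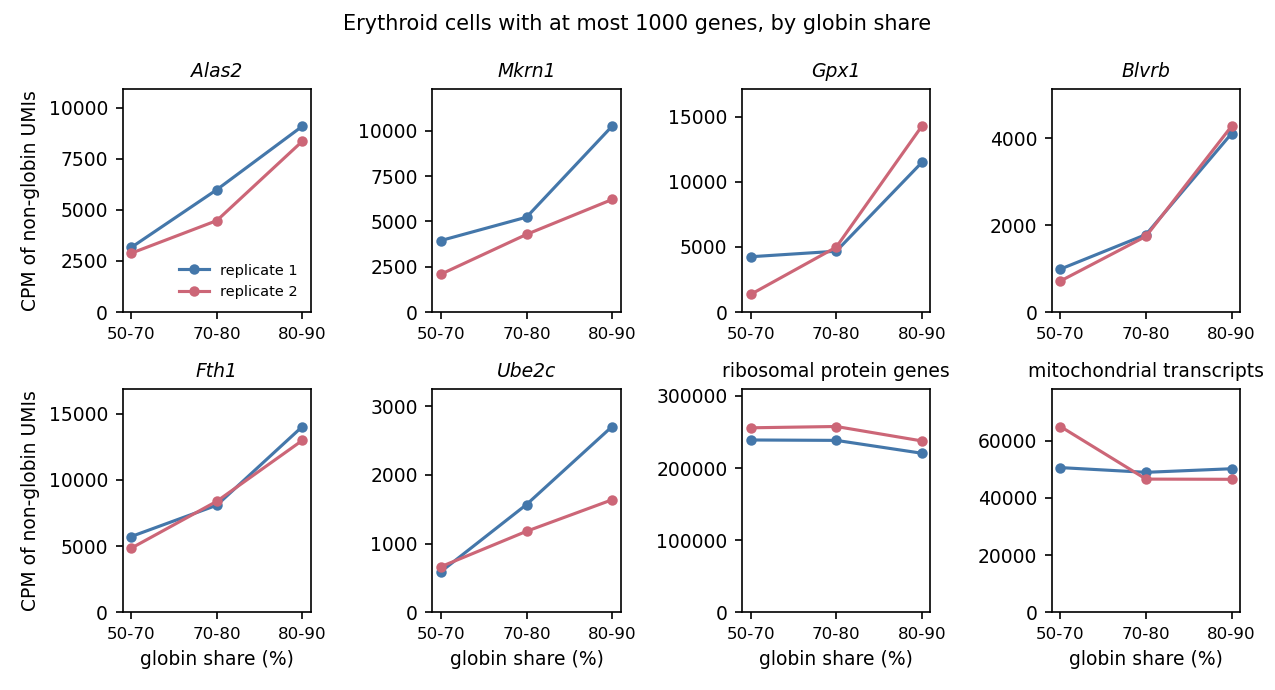
CPM of non-globin UMIs (vertical axes, from 0) in members with at most 1000 genes, by band of globin share (horizontal axes, %), for 6 genes and 2 gene families, 1 line for each library. The 6 genes are highest in the band of 80 to 90% globin in both libraries, while ribosomal protein genes and mitochondrial transcripts are not.

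The cells with macrophage markers were compared next, since macrophages handle the iron and haem of red cells. They were taken as the 36 and 94 cells outside the members with at least 3 UMIs summed over 5 macrophage genes, which are no result. In erythroid cells 664 of 18318 genes were higher (3.62%) and 1201 lower (6.56%) in the same edgeR fit. The split was 485 higher and 1529 lower with plain library size. The median log2 fold change over all tested genes was -0.01. Iron and haem genes divided between the cell types: 7 of 17 were higher in erythroid cells and 3 lower. *Slc25a37* had 7.36 and 19.7 CPM in the macrophage sums (log2 fold change 7.31 ± 0.30), and *Blvrb* had 247 and 422 CPM (2.79 ± 0.20). *Ftl1* and *Fth1*, at 4971 and 5671 and 1722 and 2524 CPM in macrophages, were higher in erythroid cells by 1.47 ± 0.15 and 2.10 ± 0.16. On the other side were *Hmox1*, the haem oxygenase that opens the haem ring, with 110.4 and 77.2 CPM in macrophages and 9.33 and 9.07 in members (log2 fold change -3.12 ± 0.79), and *Slc40a1* (ferroportin), the iron exporter, with 103 and 161 CPM and 2 and 1 UMIs in members. Haem synthesis genes were higher in 5 of 11 cases, and all 14 of 14 genes of the erythroid signature were higher, with the limit on that list given above. The 7 macrophage markers outside the gate were all lower, with a median of -5.97.

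Endothelial cells, the lining of the vessels that hold blood, were taken likewise from 5 genes (75 and 180 cells). In members 721 of 18318 genes were higher (3.94%) and 1439 lower (7.86%), with a median of all genes of -0.56. The split was 571 higher and 1964 lower with plain library size and 882 higher and 880 lower in DESeq2. *Fth1* had 4391 and 4308 CPM in endothelial sums (log2 fold change 1.07 ± 0.15), and *Tfrc*, by which vessel cells take iron into the brain, had 154 and 187 CPM there against 46.6 and 45.3 in members (-1.71 ± 0.38). *Slc2a1* (GLUT1), the glucose transporter of red cells and of brain vessels, had 430.1 and 460.4 CPM against 65.3 and 36.3 (-3.07 ± 0.34). *Car2* had 142 and 106 CPM in endothelial cells (3.27 ± 0.21), *Alas2* 9.17 and 7.37 (9.43 ± 0.27) and *Bpgm* 39.0 and 32.5 (6.84 ± 0.24). The erythroid signature was higher in 14 of 14 cases, with the same limit on that list, and haem synthesis in 6 of 11. Of the clearance and ubiquitin list, 10 of 19 were higher here, and 10 of 19 against macrophages. *Ube2c* and *Nusap1* were higher in both comparisons, by 3.97 ± 0.24 and 3.80 ± 0.29 against macrophages and by 3.44 ± 0.22 and 3.23 ± 0.24 against endothelial cells.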

How the data were processed

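The 2 WT libraries were measured by single-cell RNA sequencing. What the authors deposited is a matrix of unnormalized counts, the UMIs of each gene in each barcode, from Cell Ranger, version 7.1.0 per the file headers and 7.0.0 per the submitters' processing notes, which name mm10; the annotation release is not given in the sources used here. Each library lists 32285 genes, and the totals were 46398156 and 64324236 UMIs in 9049 and 13556 barcodes. PCR copies are collapsed by UMI, and intervals and floors cover counting error only.

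The members, gene lists and tests were chosen with earlier results of these data known. Doublets were kept; Scrublet (scanpy 1.11.5) in an alternative removed 432 and 1111 cells, 3 and 4 of them members. Counts were summed per library over erythroid, macrophage-gated, endothelial-gated and remaining cells, without the 8 genes of the rule. Cells within both gates, 1 in each library, entered no sum. The 8 sums were fitted with edgeR 4.0.16 (R 4.3.3; TMM, genes reaching 10 counts in 2 or more sums, quasi-likelihood test, library as a block), with p-values adjusted by Benjamini-Hochberg over all genes tested. Genes were called at adjusted p-values under 0.05, and the standard error is the log2 fold change divided by the square root of F. The fit was also run on simulated data, with a shared profile for all classes, a fixed spread and smaller folds than found here. That run does not test the scaling or folds of the size reported. The 2 libraries are the replicates. The spread behind a p-value was estimated over all 8 sums, so it does not measure how the 2 erythroid sums alone repeat each other. With only the sums of the 2 compared classes in the fit, 784 genes were called against remaining cells in place of 1315. Tools also included DESeq2 1.42.0 in an alternative. For detection, cells were thinned to 400 non-globin UMIs.

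The genes named by rule were the globins and *Alas2*, the 4 tested members of each list with the highest CPM in erythroid cells, and the called genes with the same direction in both libraries that had the largest upward (15, at least 100 CPM in both erythroid sums) and downward change (10, at least 100 CPM in both sums of remaining cells). Other list members named were chosen after their values were seen, and some genes that the rule names are not reported here. Positions and promoters are from RefSeq tables of GRCm38.p6, matched by symbol.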

Additional observations from a re-analysis of the deposited data

Results flagged for a closer look

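Cells with at least 30% globin UMIs were also found among the barcodes that the limits on UMIs and mitochondrial UMIs leave out, which no comparison uses. There were 46 in replicate 1 and 104 in replicate 2, beside 134 and 217 members. All but 1 in each library had under 1500 UMIs. Their median was 1148 and 1130.5 UMIs, with a median globin share of 55.1% and 49.6%. *Alas2* had 1618 and 1605 CPM in them, below the 5642 and 4120.3 CPM of the members. No control samples were given, and their part in the share of erythroid cells was not tested.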

How the results depend on the processing

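The share of members, 2.18% of the cells on average, moved with every limit that defines a cell. It was 2.40% with at least 10% globin, 2.06% with 50% and 0.806% with 80%, 2.65% with at least 500 UMIs and 1.30% with 3000, 4.38% with under 5% mitochondrial UMIs and 1.87% with under 20%, and 2.35% with doublets removed. Leaving out 1 library gave 2.12% to 2.25%. The *Hbb-bs* share of globin UMIs, 51.3%, was 50.7% at 80% globin and 51.3% to 51.4% with 1 library left out. No member reached 2% or 5% embryonic-type globin (0 cells), so these splits could not be fitted either. Erythroid against remaining cells, the 1315 calls became 2043 with plain library size, 784 with only the sums of the 2 classes and 2136 without members with over 1000 genes, the last chosen after seeing the data. Of the main calls, 747 were kept by DESeq2 and 1200 without those members. The fit with no replicate block gave 1234 calls; the block is the library itself. Leaving out 1 library leaves the compared sums without replicates, so it gives ratios and no test. Against macrophages and endothelial cells the total of calls stayed within 1.5 times the main one in all alternatives run, but the split did not: at 80% globin it was 323 higher and 1169 lower, and 321 higher and 1313 lower, against endothelial cells with only the sums of the 2 classes it was 749 higher and 910 lower, and with DESeq2 882 higher and 880 lower. Against remaining cells the split was 680 higher and 1162 lower at 50% and 387 higher and 1123 lower at 80% globin. The log2 rise of the erythroid marker sum, 2.15 between 30 to 60% and 60 to 90% globin, was 3.28 between 30 to 50% and 80 to 90%, and 1.45 between 50 to 70% and 80 to 90% in members with at most 1000 genes, both bands chosen after seeing the data. 

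Over the named genes, 2498 values of the alternative fits kept direction and side of the threshold, 130 lost and 60 gained a call, 12 turned with a call before or after, and 91 changed sign with no call in either fit. Of the ratios from 1 library, which have no test, 167 kept the sign and 4, of genes with no call, did not. No value is given for 115 fits and 11 ratios, since a class had 0 UMIs and 3 counts in its place gave no fold or one of the other sign. They include *C1qa*, *C1qb*, *Cx3cr1* and *Ptprc* without replicate 2, and *Ptprc*, whose 5 erythroid UMIs fell to 0, against remaining cells at 50% and 80% globin, with doublets removed and without members with over 1000 genes. *Cx3cr1* fell to 0 and 1 erythroid UMIs at 50% globin, with doublets removed and without members with over 1000 genes, and its fitted value was then -0.20, -0.52 and -0.11 against remaining cells and -0.78, -0.20 and -0.69 against endothelial cells, which at these counts is no measured direction. At 80% globin *Bcl11a*, of 1 and 3 UMIs, turned to -1.52 against macrophages and -1.96 against endothelial cells, and *mt-Atp6* to -0.0514 against macrophages. *Nrxn3* turned against endothelial cells to -0.62 at 50%, -3.85 at 80% (0 and 6 UMIs) and -1.84 without members with over 1000 genes. The cause was not tested. The members' few non-globin UMIs set the depth: 3 counts are 28.0 and 13.6 CPM in replicates 1 and 2.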
